A study of Homo sapiens with 18 samples.

Results

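Prostaglandin synthesis, receptors and breakdown were followed through 10 genes, chosen by name among the 50119 genes measured in Saos-2 cultures and tumors. They were the cyclooxygenases PTGS1 and PTGS2, the prostaglandin E synthases PTGES, PTGES2 and PTGES3, the prostacyclin synthase PTGIS, the receptors PTGER2, PTGER4 and PTGDR2, and the breakdown enzyme HPGD. The genes were picked with values of these libraries in view. The low level of PTGDR2 outside fresh tumor was known at that point, so it is described without a test, and which values of the other 9 genes had been seen is not recorded.

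RNA sequencing libraries were compared in 6 groups of 3. All were described as Saos-2, an established human osteosarcoma (OS) line of 1 origin. The labels give its genotype as WT, with no added gene, deletion or drug in any group. D-2 was cells grown in 2D for 14 days. D-3 was cells in Matrigel, a basement membrane gel, for 14 days. DP-3 was cells printed in a bioink of methacrylated gelatin and alginate and kept for 14 days, and DP-3 day 1 was the same print after 1 day. IT was pieces of a Saos-2 tumor kept on Matrigel for 14 days. FIT was fresh tumor taken 2 weeks after cells were placed under the skin of 4-week-old female BALB/c nude mice. In the study the excised tumor was split between tissue culture and fresh tissue. Libraries of IT and FIT may thus share tumors, and which do is not given. All cultures had DMEM-F12 with fetal bovine serum. Nude mice lack mature T cells but keep other immune cells, so FIT and IT could hold mouse RNA, and how mouse reads were handled is not given in the sources used here. In bulk tissue, fewer cells of a type and less RNA per cell cannot be told apart.

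Prostanoids are made from arachidonic acid, which phospholipases release from membranes. A cyclooxygenase turns it into the unstable intermediate PGH2, and terminal synthases turn PGH2 into PGE2, PGD2, prostacyclin or thromboxane. PGE2 acts on several receptors, of which EP2 (PTGER2) and EP4 (PTGER4) raise cAMP, while PGD2 acts on DP2 (PTGDR2). In bone, PGE2 is known as a local regulator of both formation and resorption, and HPGD (15-hydroxyprostaglandin dehydrogenase) ends its action.

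Promoters of 8 of the 10 genes were found in the RefSeq table for GRCh38.p14, and 3 are printed because PTGS2 is the inducible cyclooxygenase and because PTGES and PTGER2 were differentially expressed in several comparisons between cultures. Each run is 5′ to 3′ on the strand of the gene and stops before the start of the gene in any annotation used. The runs are 243 to 246 bases long. Capitals mark the motifs searched on both strands.
PTGS2, chr1:186680428-186680673, minus strand: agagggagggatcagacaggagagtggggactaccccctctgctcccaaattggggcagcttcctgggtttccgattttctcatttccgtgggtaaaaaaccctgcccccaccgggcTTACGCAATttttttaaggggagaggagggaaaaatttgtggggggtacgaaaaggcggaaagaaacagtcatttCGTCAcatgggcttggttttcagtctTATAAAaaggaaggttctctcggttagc
PTGES, chr9:129753048-129753292, minus strand: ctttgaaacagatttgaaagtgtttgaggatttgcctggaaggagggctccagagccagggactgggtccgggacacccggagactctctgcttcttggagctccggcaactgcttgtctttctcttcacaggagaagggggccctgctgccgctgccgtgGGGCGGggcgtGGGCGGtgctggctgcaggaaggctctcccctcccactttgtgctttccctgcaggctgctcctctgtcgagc
PTGER2, chr14:52314062-52314304, plus strand: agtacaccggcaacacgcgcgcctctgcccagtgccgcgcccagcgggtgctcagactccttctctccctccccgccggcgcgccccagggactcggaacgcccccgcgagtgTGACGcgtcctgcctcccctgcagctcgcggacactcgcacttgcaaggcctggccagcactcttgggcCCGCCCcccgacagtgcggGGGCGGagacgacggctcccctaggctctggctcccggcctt
Each motif is given with its share of 35116 promoters of 250 bases. A GC box, spelled GGGCGG, was present in 42.6% of them. A TATA box, spelled TATAAA, was present in 10.7%. A cAMP response half-site, spelled TGACG, was present in 21.2%. A C/EBP motif, spelled TTNNGCAAT, was present in 2.04%. An AP-1 motif, spelled TGANTCA, was present in 6.57%. None of the matches printed overlapped another. The PTGS2 run held 1 TATA box, 1 half-site and 1 C/EBP motif, and no GC box. The PTGES run held 2 GC boxes and none of the other 4 motifs. The PTGER2 run held 2 GC boxes and 1 half-site. These matches describe letters in these windows and were not tied to any level below.

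The files give for each gene an FPKM, which scales fragments by gene length and library total, and an estimated count. Total estimated counts per library were 50327345 to 79082786 in 17 libraries and 23721666 in FIT replicate 3. An estimated count of 12, about 3 read pairs, was taken as the limit of detection, for counting error only. The libraries of DP-3 day 1 listed 24694 to 24791 genes at 0.1 FPKM or more, against 17716 to 22322 in the other groups. The labelled cell type was checked with 9 genes of the osteoblast lineage. RUNX2 and COL1A1 were present, but the group means of ALPL, SP7 and IBSP stayed below 0.1 FPKM in all 6 groups, so these defining markers were absent or nearly so. The labelled identity is thus open to doubt and was not tested, and the name Saos-2 is used as labelled.

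Across the libraries the genes lay on very different levels. PTGES3 was highest, from 44.6 to 136 FPKM, followed by PTGES2 from 9.21 to 15.1 FPKM and PTGER2 from 3.33 to 18.3 FPKM. PTGER4 ranged from 1.12 to 6.05 FPKM, and these 4 genes exceeded 1 FPKM in all 18 libraries. PTGES exceeded 1 FPKM in 7 libraries, PTGDR2 in 3 and PTGS1 in 2. PTGS2, PTGIS and HPGD stayed below 1 FPKM in every library. PTGES exceeded the limit of detection in 15 of 18 libraries and PTGIS in 8.

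**Figure D1:**
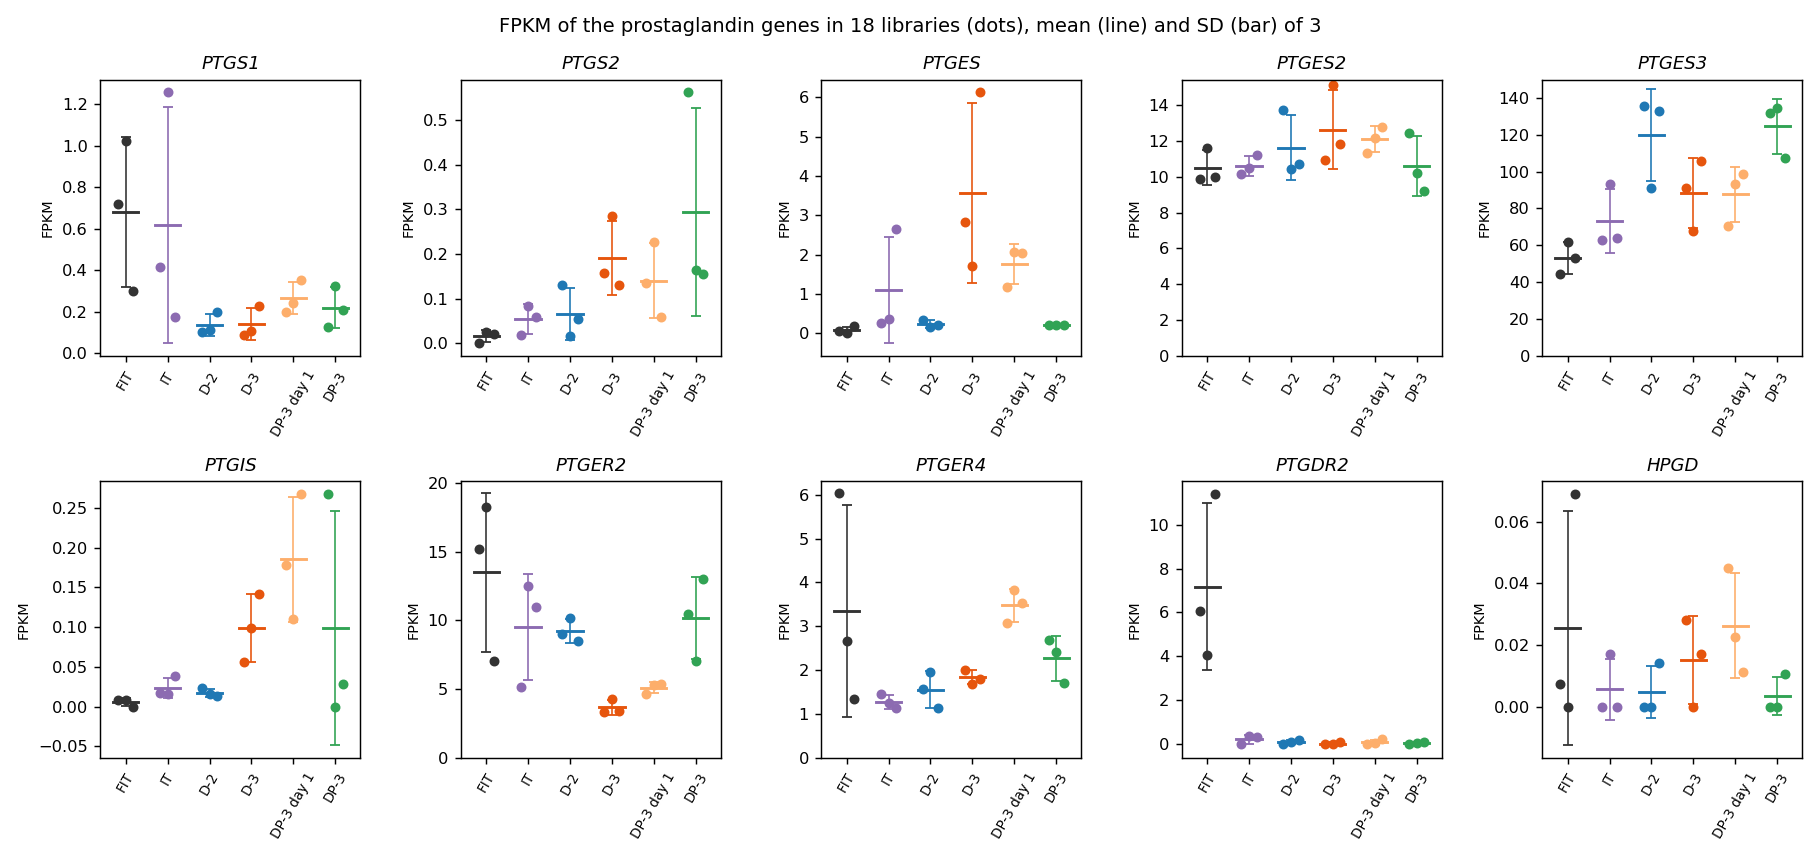
Each panel plots the FPKM of a gene (vertical axis, own scale) in 6 groups (horizontal axis), with a dot per library, a line at the mean and a bar of 1 SD. PTGDR2 was above 4 FPKM only in FIT, PTGES was above 1 FPKM in all libraries of D-3 and DP-3 day 1, and PTGER2 was lowest in D-3.

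The cyclooxygenases were low in every group. PTGS1, the constitutive cyclooxygenase (chr9:122370530-122395703, plus strand, GRCh38), measured 0.717, 1.02 and 0.302 FPKM in FIT and 0.415, 1.26 and 0.176 FPKM in IT. It measured 0.103, 0.112 and 0.197 FPKM in D-2 and 0.0870, 0.109 and 0.227 FPKM in D-3. DP-3 day 1 had 0.1997, 0.245 and 0.351 FPKM, and DP-3 had 0.128, 0.327 and 0.208 FPKM. The tumor groups had the higher means but spread widely, and every neighbour in the order FIT, IT, DP-3 day 1, DP-3, D-3, D-2 overlapped. FIT did not overlap D-2 or D-3.

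PTGS2, the cyclooxygenase that cytokines and growth factors induce (chr1:186671791-186680423, minus strand), was at 0, 0.0259 and 0.0209 FPKM in FIT, with 0, 11 and 4 counts, all under the limit of detection. It reached 0.562, 0.165 and 0.155 FPKM in DP-3 and 0.156, 0.285 and 0.130 FPKM in D-3. In IT it was 0.0179, 0.0844 and 0.0596 FPKM, in D-2 it was 0.130, 0.0160 and 0.0539 FPKM, and in DP-3 day 1 it was 0.135, 0.227 and 0.0599 FPKM. D-3, DP-3 and DP-3 day 1 all lay above all FIT libraries, and 1 library, DP-3 replicate 1, set the top of the range. Summed FPKM of both cyclooxygenases ran from 0.128 to 1.34. PTGS1 made up 93.5% to 100% of it in FIT, where PTGS2 was under the limit of detection. It made up 18.5% to 66.45% in DP-3, 27.7% to 63.6% in D-3, 44.05% to 87.5% in D-2 and 51.9% to 85.4% in DP-3 day 1. None of these overlapped FIT, while IT did, at 74.7% to 95.9%.

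The 3 synthases of PGE2 behaved unlike each other. PTGES (chr9:129738331-129753042, minus strand) encodes the membrane enzyme that is induced together with PTGS2. It was at 2.83, 1.72 and 6.12 FPKM in D-3 and at 1.17, 2.05 and 2.04 FPKM in DP-3 day 1. In D-2 it was 0.345, 0.168 and 0.210 FPKM, and in DP-3 it was 0.215, 0.204 and 0.223 FPKM. In IT it was 0.265, 0.370 and 2.65 FPKM, and in FIT it was 0.0511, 0 and 0.178 FPKM, with at most 10 counts. D-3 and DP-3 day 1 were high in all 6 libraries, D-2 and DP-3 were low in all 6, and IT held 1 high library, replicate 3, and 2 low ones. In FPKM all libraries of FIT lay below all of DP-3, the next group above it. Every FIT library was under the limit of detection, so that order is not resolved.

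PTGES2 (chr9:128120693-128128418, minus strand), the membrane-associated synthase, was the steadiest of the 10 genes. Its group means ran from 10.50 FPKM in FIT to 12.6 FPKM in D-3, a ratio of 1.20, and all neighbours in the order of means overlapped. It lies 1.61 Mb from PTGES on the same chromosome, and PTGS1 lies 5.725 Mb to its other side.

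PTGES3 (chr12:56663341-56688408, minus strand), the cytosolic synthase also known as the HSP90 co-chaperone p23, was at 44.6, 61.9 and 53.1 FPKM in FIT. It was at 136, 91.0 and 133 FPKM in D-2 and at 132, 135 and 107 FPKM in DP-3. In IT it was 62.9, 93.2 and 63.8 FPKM, in D-3 it was 90.9, 67.9 and 105.8 FPKM, and in DP-3 day 1 it was 70.7, 93.3 and 98.8 FPKM. Every cultured library exceeded every FIT library, and the neighbours above FIT overlapped. The gene has 5 named pseudogene copies, so reads may have been shared with them in the counting.

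By level, PTGES was a small part of the 3 synthases. It made up 2.03% to 4.95% of their summed FPKM in D-3, 1.40% to 1.91% in DP-3 day 1, 0.356% to 3.41% in IT, and at most 0.282% in the libraries of the other groups.

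PTGIS (chr20:49503874-49568137, minus strand), which makes prostacyclin, exceeded the limit of detection in 8 of 18 libraries and never exceeded 0.268 FPKM. Those 8 were all libraries of D-3 and DP-3 day 1, IT replicate 3 and DP-3 replicate 1. It was at 0.179, 0.110 and 0.268 FPKM in DP-3 day 1, and in D-2 it was 0.0228, 0.0152 and 0.0138 FPKM.

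The E receptors were expressed in every library. PTGER2 (chr14:52314305-52328598, plus strand) was at 15.2, 18.3 and 7.06 FPKM in FIT, at 5.17, 12.5 and 10.95 FPKM in IT and at 10.49, 7.07 and 13.0 FPKM in DP-3. It was at 9.03, 10.2 and 8.52 FPKM in D-2, at 4.67, 5.27 and 5.38 FPKM in DP-3 day 1 and at 3.33, 4.28 and 3.37 FPKM in D-3. The 4 highest groups overlapped their neighbours. D-2, DP-3 day 1 and D-3 followed each other without overlap.

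PTGER4 (chr5:40679915-40693735, plus strand), the other cAMP-raising receptor, was at 3.08, 3.83 and 3.54 FPKM in DP-3 day 1 and at 6.05, 2.66 and 1.34 FPKM in FIT. In the remaining groups it lay between 1.12 and 2.68 FPKM, and all neighbours in the order of means overlapped. On TMM-scaled CPM FIT, not DP-3 day 1, had the highest mean. Its locus overlaps TTC33 on the other strand, and whether the counting used strand is not given in the sources used here. The ratio of PTGER2 to PTGER4 in FPKM was 1.47 ± 0.0806 (SD, n = 3) in DP-3 day 1 and 2.02 ± 0.451 in D-3. It was 4.84 ± 2.51 in DP-3, 4.89 ± 2.21 in FIT, 6.18 ± 1.25 in D-2 and 7.77 ± 3.63 in IT. It ran from 1.38 to 2.53 in the libraries of D-3 and DP-3 day 1. Of the other libraries FIT replicate 1, at 2.51, fell in that range.

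PTGDR2 (chr11:60850933-60855950, minus strand) encodes DP2, the PGD2 receptor known from type 2 T cells, eosinophils and basophils. In FIT it was at 6.06, 4.06 and 11.4 FPKM, with 1361, 931 and 913 counts. No other library exceeded 0.366 FPKM. It was 9e-06, 0.366 and 0.358 FPKM in IT, 0.0147, 0.117 and 0.206 FPKM in D-2, and 0.000842, 0.00114 and 0.116 FPKM in D-3. It was 0, 0.0646 and 0.228 FPKM in DP-3 day 1, and in DP-3 it was 0.0302, 0.0565 and 0.0918 FPKM. FIT stood apart from IT, the next group in order, by a ratio of means of 29.7, and the 5 groups other than FIT overlapped their neighbours.

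The surroundings of PTGDR2 were compared with it because its locus overlaps CCDC86 on the other strand. Means of CCDC86 were 44.9 FPKM in FIT, 25.4 FPKM in IT, 55.5 FPKM in D-2, 27.7 FPKM in D-3, 30.1 FPKM in DP-3 day 1 and 45.2 FPKM in DP-3. ZP1, the next gene above at 11612 bases, was at 3.02, 2.94 and 5.67 FPKM in FIT, at 1.64, 1.26 and 0.561 FPKM in IT and at most 0.426 FPKM elsewhere. Of 14209 genes with a mean of at least 1 FPKM in a group, the 3 with the highest Pearson r to PTGDR2 on log2(FPKM + 0.1) over the 18 libraries were LSP1 (0.944), PRR33 (0.934) and KRT5 (0.934). LSP1, an actin-binding protein known from leukocytes, was at 5.81, 6.97 and 7.96 FPKM in FIT, and KRT5, a keratin of basal keratinocytes, was at 0.642, 0.918 and 2.04 FPKM there. The libraries share groups and the correlation rests on FIT, so it is given as a description.

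**Figure D2:**
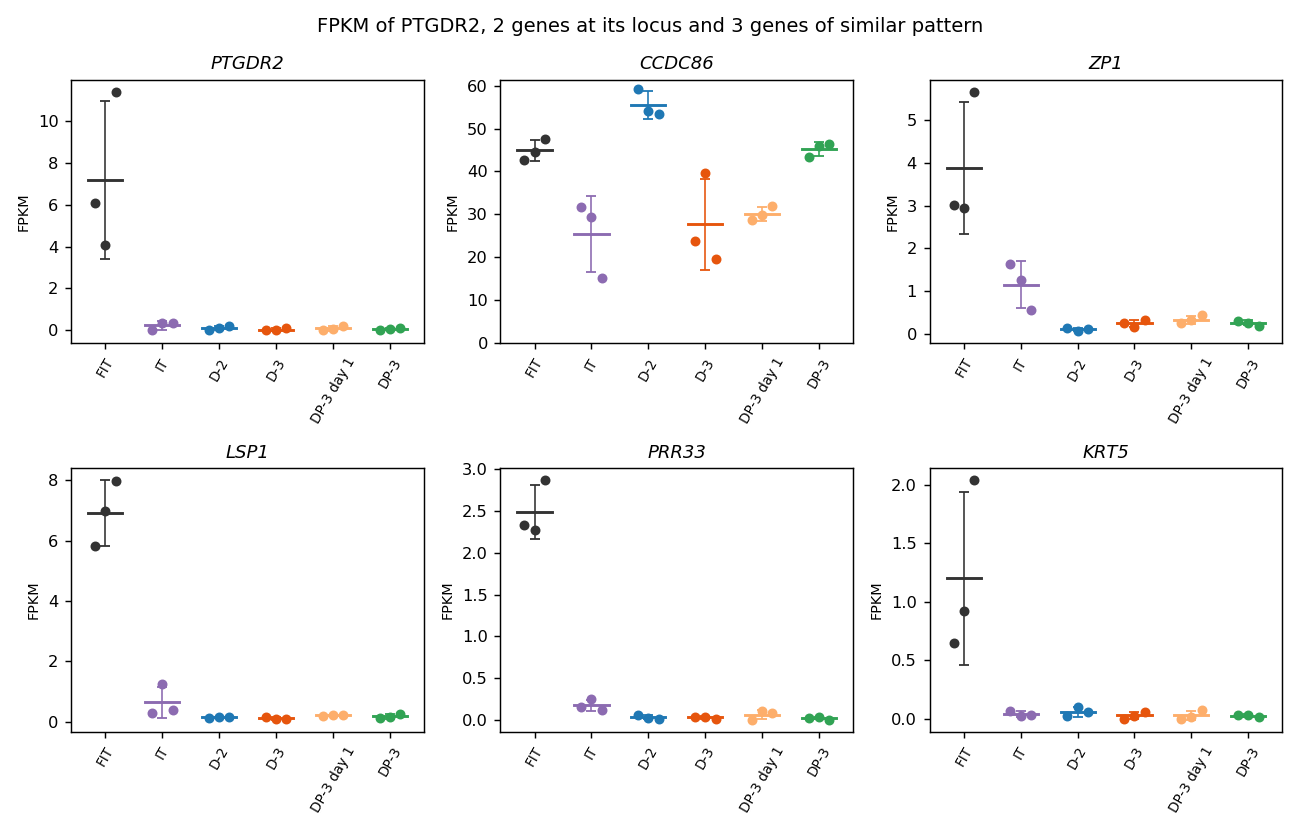
Each panel plots FPKM (vertical axis, own scale) per library in 6 groups (horizontal axis) with the mean and SD of 3. PTGDR2, LSP1, PRR33 and KRT5 were highest in FIT, ZP1 was highest in FIT and next in IT, and the overlapping gene CCDC86 was highest in D-2.

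Markers of cells that could carry DP2 were read beside it. The list of type 2 lymphocyte, eosinophil, basophil and mast cell markers summed to 0.796 to 1.61 FPKM in FIT. Its sums were 0.992 to 1.73 FPKM in IT, 0.556 to 0.764 FPKM in D-2, 1.58 to 1.96 FPKM in D-3, 1.24 to 1.68 FPKM in DP-3 day 1 and 0.652 to 1.07 FPKM in DP-3. Of its 15 genes 12 had a mean below 0.1 FPKM in FIT, among them HDC, CPA3, MS4A2 and IL5RA, which mark mast cells, basophils or eosinophils. CCR3, the eotaxin receptor of eosinophils, had means of 0.675 FPKM in FIT, 0.619 FPKM in IT, 0.398 FPKM in D-3 and 0.151 FPKM or less in the remaining groups. PRG2, an eosinophil granule protein, had means of 0.204 FPKM in FIT, 0.181 FPKM in DP-3 day 1 and 0.101 FPKM in IT. The 6 T cell markers all had means below 0.1 FPKM in FIT and summed to at most 0.132 FPKM. Summed keratinocyte markers were 21.5 to 41.3 FPKM in FIT and 16.2 to 27.6 FPKM elsewhere. KRT10 carried these sums, with group means of 19.2 to 25.0 FPKM. KRT14 ranged from 0.115 to 10.4 FPKM in FIT, with means of at most 0.219 FPKM elsewhere. KRT5 had a mean of 1.20 FPKM in FIT and at most 0.0576 FPKM elsewhere. KRT1, LORICRIN and IVL had means of at most 0.0459 FPKM in every group. Summed skeletal muscle markers were 0.613 to 5.23 FPKM in FIT and at most 0.537 FPKM elsewhere, with MYH2 from 0 to 3.61 FPKM in FIT. Sums for macrophage, endothelial, fibroblast, adipocyte and red blood cell or platelet markers in FIT overlapped those of IT. In none of these sums did FIT lie above every other group. CD68, TIE1 and THY1 had the highest means of the first lists, at least 23.3 FPKM in every group. Endothelial PECAM1 (3.59 and 4.02 FPKM), CDH5 (0.656 and 0.844 FPKM) and TEK (0.370 and 0.310 FPKM) had higher means in FIT and IT than in any other group. VWF, KDR, CLDN5, EGFL7 and TIE1 did not. The part of host or other cells in the level of PTGDR2 was not tested.

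HPGD (chr4:174490175-174523065, minus strand) was at or under 12 counts in 17 of 18 libraries. Its highest FPKM was 0.0689, in FIT replicate 3. The other library, DP-3 day 1 replicate 1, had 16 counts.

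The question put to these genes was how far each culture differed from fresh tumor. A gene was tested where 3 or more of the 6 libraries reached 0.1 FPKM. The test was edgeR's quasi-likelihood test, and DEGs had an adjusted p (Benjamini-Hochberg, over all genes tested) below 0.05 and a change of at least 2-fold. All 4 comparisons share the FIT libraries, so their values stand side by side and are not independent. IT and FIT may share tumors, but the main test did not pair them. PTGDR2 was chosen for its level in FIT, so counts in every comparison leave it out and its fold changes are a description. Nothing says that the 3 libraries of a culture group came from separate cultures, so p-values measure the spread between these libraries, and 3 against 3 cannot give an exact permutation p below 0.1.

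In D-2 against FIT, 2 of the 6 other genes tested were DEGs, 1 higher and 1 lower, where 14.6% of all genes tested were DEGs (3.83% higher, 10.8% lower). The libraries of the groups did not overlap for 2 of the 6, against 49.9% of all genes. PTGES3 was upregulated by 1.32 on the log2 scale (SE 0.204, edgeR adjusted p = 0.00490). PTGS1 was downregulated, with a log2 fold change of -2.17 (SE 0.521, edgeR adjusted p = 0.0197), but leaving out any of FIT replicate 1, FIT replicate 2, D-2 replicate 1 or D-2 replicate 2 ended the call, with edgeR adjusted p up to 0.0740. PTGDR2 had a log2 fold change of -5.78, and of -6.54 without D-2 replicate 3. PTGER2 and PTGER4 had log2 fold changes of -0.41 and -0.95 and were no DEGs.

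In D-3 against FIT, 2 of 7 genes tested were DEGs, 1 higher and 1 lower, against 6.45% of all genes (4.29% higher, 2.17% lower). Without overlap were 5 of the 7, against 32.4% of all genes. PTGES was at least 26.6-fold higher in D-3 than the limit of detection in FIT (edgeR adjusted p = 0.0216). That bound was 17.1 without D-3 replicate 3 and 41.7 without FIT replicate 3. PTGER2 was downregulated, at -1.96 (SE 0.360, edgeR adjusted p = 0.0186). PTGDR2, with 1, 1 and 27 counts in D-3, had a log2 fold change of -7.40. Only replicate 3 of D-3 exceeded the limit of detection for PTGDR2, so no fold is given with that library left out. PTGES lost its call without FIT replicate 1, D-3 replicate 1 or D-3 replicate 3, with edgeR adjusted p up to 0.0903, and PTGER2 without those or FIT replicate 2, with edgeR adjusted p up to 0.0886. The log2 fold change of PTGER2 stayed between -1.62 and -2.28 with any library left out. In the fits that lost a call the DEGs over all genes numbered 371 to 700, against 1399 with every library. PTGS1 at -2.34 (edgeR adjusted p = 0.0508) and PTGS2, at least 3.999-fold higher (edgeR adjusted p = 0.0876), did not pass. The bound of PTGS2 was 6.27 without FIT replicate 3.

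In DP-3 against FIT, 1 of 7 genes tested was a DEG, 1 higher and 0 lower, against 4.82% of all genes (1.66% higher, 3.16% lower). The groups did not overlap for 3 of the 7, against 34.1% of all genes. PTGES3 was upregulated by 1.34 (SE 0.183, edgeR adjusted p = 0.0127), a call that was lost without DP-3 replicate 1 (edgeR adjusted p = 0.0555). PTGDR2 had a log2 fold change of -6.72. PTGS2 was at least 6.91-fold above the limit of detection in FIT but missed the threshold (edgeR adjusted p = 0.0529). Its bound was 3.84 without DP-3 replicate 1 and 11.04 without FIT replicate 3. PTGES was at least 1.87-fold higher, with an edgeR adjusted p of 0.377, and its bound was 2.98 without FIT replicate 3.

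In IT against FIT, 0 of 6 genes tested were DEGs by edgeR, as was true of 0% of all genes. At an unadjusted p under 0.05 there were 2, against 12.7% of all genes, and DESeq2 called 1, PTGES. No overlap was seen for 2 of the 6, against 20.6% of all genes. PTGDR2 had a log2 fold change of -4.85, and of -4.26 without IT replicate 1. PTGES was at least 8.62-fold higher (edgeR adjusted p = 0.322). Its counts in IT were 41, 57 and 345, and the bound was 2.51 without IT replicate 3 and 13.7 without FIT replicate 3. PTGER4 had a log2 fold change of -1.38 (SE 0.496, edgeR adjusted p = 0.321), and of -0.68 without FIT replicate 1. Without FIT replicate 3, the shallow library, the DEGs numbered 3 for D-2, 3 for D-3, 2 for DP-3 and 0 for IT, again with PTGDR2 left out.

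**Figure D3:**
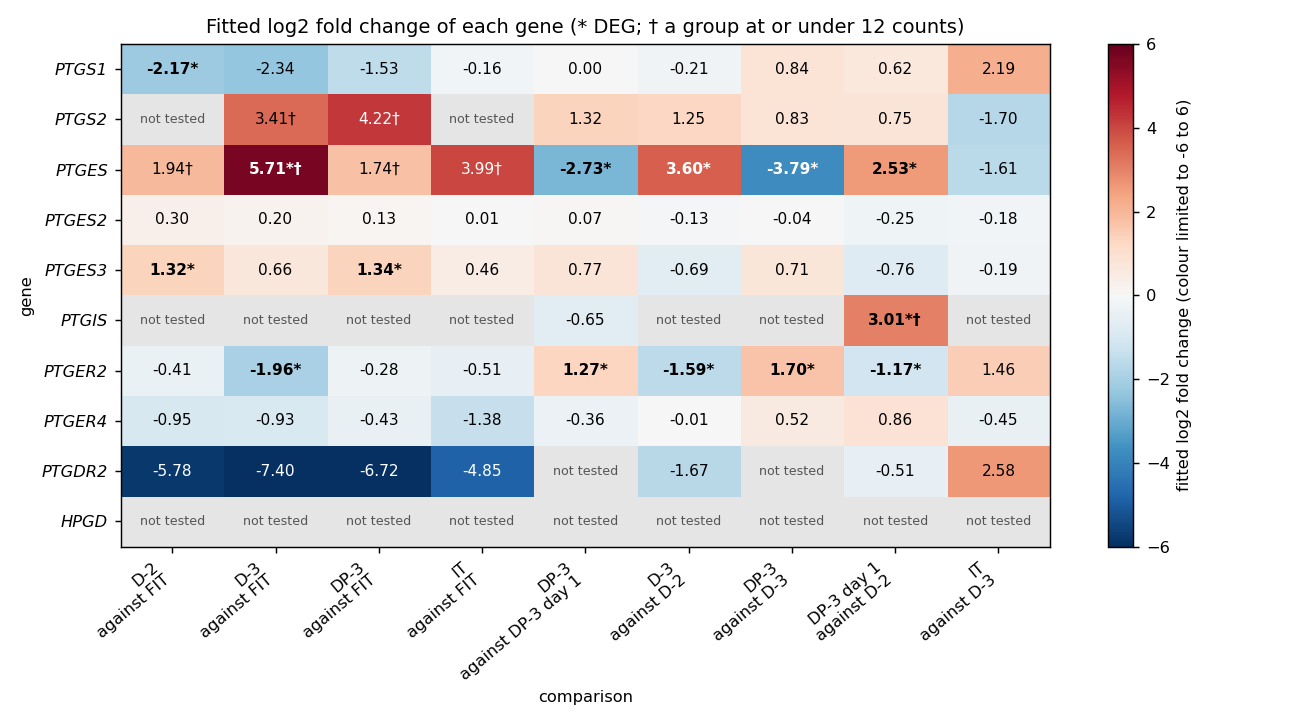
Fitted log2 fold changes of the 10 genes (rows) in 9 comparisons (columns), coloured from blue (lower in the first group) to red (higher), with a star for a DEG (none is given to PTGDR2, a description against FIT) and grey for a gene not tested. A dagger marks a gene at or under 12 counts in every library of a group, whose fitted value is no measured fold. PTGES and PTGER2 carry most of the stars, and PTGES2 carries none.

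Outside the host, the cultures were compared directly with each other to ask how the growth format and time changed these genes. D-3, D-2, DP-3 and DP-3 day 1 recur in several of these comparisons, so again the results are not independent. In D-3 against D-2, with PTGDR2 again left out, 2 of 7 genes tested were DEGs, 1 higher and 1 lower. Of all genes 18.5% were DEGs (14.6% higher, 3.95% lower). The groups did not overlap for 3 of the 7, against 53.2% of all genes. PTGES was upregulated by 3.60 (SE 0.555, edgeR adjusted p = 0.00423) and PTGER2 was downregulated, at -1.59 (SE 0.162, edgeR adjusted p = 0.00169). Both calls held with any library left out, and PTGES was at 2.95 without D-3 replicate 3. PTGES3 passed the p threshold at -0.69 (edgeR adjusted p = 0.0389) but changed less than 2-fold.

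Comparison of DP-3 with D-3 set printed tissue against cells in Matrigel at the same 14 days. Gel, printing, cross-linking and shape differed together and cannot be told apart. Of 7 genes tested 2 were DEGs, 1 lower and 1 higher, where 9.12% of all genes were (1.98% higher, 7.15% lower). No overlap was seen for 3 of the 7, against 39.7% of all genes. PTGES was lower in DP-3, at -3.79 (SE 0.523, edgeR adjusted p = 0.00793) and at -3.14 without D-3 replicate 3, and PTGER2 was higher by 1.70 (SE 0.273, edgeR adjusted p = 0.0113), a call lost without D-3 replicate 3 (edgeR adjusted p = 0.0519). PTGES3 was higher by 0.71 (edgeR adjusted p = 0.0406), under 2-fold.

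Printed tissue on day 14 was set against day 1 to follow time in culture. Of 8 genes tested 2 were DEGs, 1 lower and 1 higher, where 7.56% of all genes were (1.81% higher, 5.76% lower). Without overlap were 4 of the 8, against 45.2% of all genes. PTGES was downregulated over time, at -2.73 (SE 0.340, edgeR adjusted p = 0.00333). One fit of all 18 libraries ended the PTGES call (edgeR adjusted p = 0.0512). PTGER2 was upregulated by 1.27 (SE 0.243, edgeR adjusted p = 0.0122). This call was lost without DP-3 day 1 replicate 1 or 3, with edgeR adjusted p up to 0.0533. By limma PTGER2 was under 2-fold, at 0.94 on log2(FPKM + 0.1) and 0.84 on log2(FPKM + 1). PTGES3 rose by 0.77 (edgeR adjusted p = 0.0108), under 2-fold, and PTGS2 at 1.32 did not pass (edgeR adjusted p = 0.209) and was at 0.47 without DP-3 replicate 1.

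In DP-3 day 1 against D-2, 3 of 8 genes tested were DEGs, 2 higher and 1 lower, where 17.2% of all genes were (13.1% higher, 4.13% lower). Without overlap were 5 of the 8, against 60.4% of all genes. PTGES was higher by 2.53 (SE 0.387, edgeR adjusted p = 0.00224), PTGER2 was lower at -1.17 (SE 0.105, edgeR adjusted p = 0.000222), and PTGIS was at least 6.37-fold above the limit of detection in D-2 (edgeR adjusted p = 0.00273). One fit of all 18 libraries ended the PTGIS call (edgeR adjusted p = 0.0552). PTGES and PTGIS were higher in the libraries that listed the most genes, and that part was not tested. PTGER4 was higher by 0.86 (edgeR adjusted p = 0.0179), under 2-fold. Which of the E receptors passed 2-fold depended on the processing. By limma PTGER2 was under 2-fold, at -0.84 on log2(FPKM + 0.1) and -0.75 on log2(FPKM + 1). PTGER4 was called by limma on log2(FPKM + 0.1) and by edgeR at an FPKM minimum of 1. In IT against D-3, 0 of 7 genes tested were DEGs by edgeR, where 0.0461% of all genes were (0.0369% higher, 0.00922% lower). The groups did not overlap for 3 of the 7, against 15.7% of all genes. At an unadjusted p under 0.05 there were 3, against 8.9% of all genes, and DESeq2 called PTGER2, whose edgeR log2 fold change was 1.46 (adjusted p = 0.231).

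**Figure D4:**
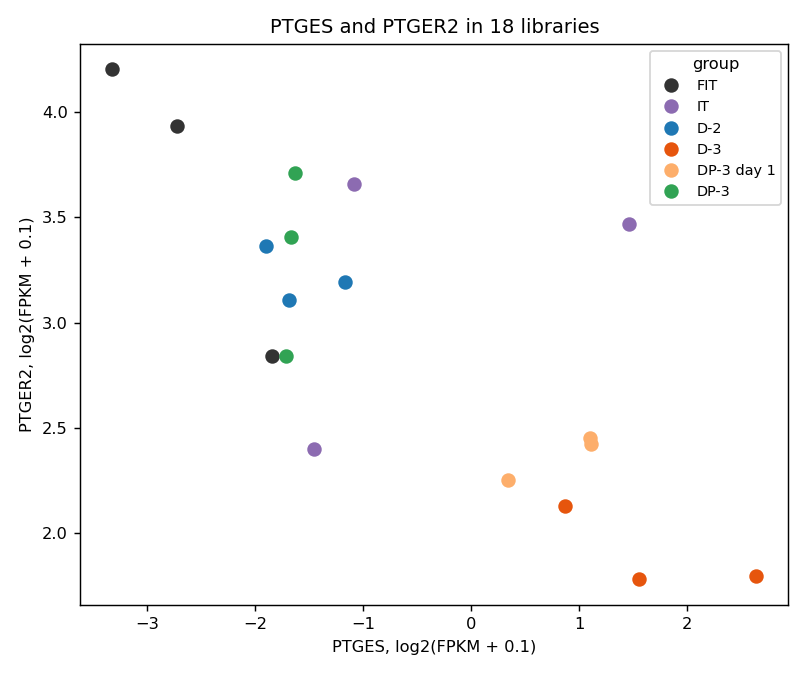
Each dot is a library, with PTGES on the horizontal and PTGER2 on the vertical axis, both as log2(FPKM + 0.1), coloured by group. The libraries of D-3 and DP-3 day 1 sit at the lower right, with PTGES at 1.17 FPKM or more and PTGER2 at 5.38 FPKM or less, while IT replicate 3 is high in both.

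Other genes of the pathway were taken from fixed lists, and each list is given by its DEG counts and its median beside that of all genes. The counts are small and are to be read beside the shares of all genes given above for the same comparisons. A list of 14 genes covered the release of arachidonic acid and included ANXA1, which acts against it. In D-2 against FIT 2 of 9 tested were higher and 1 was lower. Their median log2 fold change was 0.24, against -0.09 for all genes. In D-3 against FIT 3 of 10 were higher, ANXA1 among them, with a median of 0.71 against 0.02. PLA2G4A, the cytosolic phospholipase that supplies the cyclooxygenases, was higher by 3.14 in D-2 (edgeR adjusted p = 0.0285) and by 3.33 in D-3 (edgeR adjusted p = 0.0447), from a mean of 0.247 FPKM in FIT. ANXA1, annexin A1, which restrains phospholipase activity, was higher in D-3 by 1.88 (edgeR adjusted p = 0.0158), at 251 FPKM. In DP-3 against FIT 0 of 8 and in IT against FIT 0 of 10 were DEGs.

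Of the other prostanoid synthases, TBXAS1, thromboxane synthase, was the DEG of 6 genes tested in D-2 (-2.18, edgeR adjusted p = 0.0153) and in D-3 (-2.42, edgeR adjusted p = 0.0284) against FIT. In the same list 0 of 6 were DEGs in DP-3 and in IT against FIT. Of the other prostanoid receptors, 1 of 4 tested was higher in D-2 against FIT, and 0 of 3 passed for D-3, for DP-3 or for IT. Of the transport and breakdown genes, 1 of 6 tested passed in D-3 against FIT, PTGR2 (prostaglandin reductase), which was higher by 1.24 (edgeR adjusted p = 0.0373), while 0 of 6 passed for D-2, for DP-3 or for IT.

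The lipoxygenase and leukotriene branch uses the same arachidonic acid. Of its genes, 5 of 12 tested were lower in D-2 against FIT, with a median of -0.68 against -0.09 for all genes. GGT5, which converts leukotriene C4, was lower than FIT by a log2 fold change of -5.05 for D-2 (edgeR adjusted p = 0.00264), -3.24 for D-3 (edgeR adjusted p = 0.0154) and -3.02 for DP-3 (edgeR adjusted p = 0.0337). In D-3 against FIT 1 of 13 was higher and 1 lower, in DP-3 1 of 12 was lower, and in IT 0 of 12 passed. In D-3 against D-2 6 of 12 were higher, with a median of 1.12 against 0.11, among them LTB4R, a leukotriene B4 receptor, by 1.33 (edgeR adjusted p = 0.0194).

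Genes known to respond to cAMP, the messenger of EP2 and EP4, were listed too, though many other signals move them. In D-2 against FIT 4 of 10 tested were lower and in DP-3 against FIT 3 of 11 were lower, with medians of -0.70 and -1.37 against -0.09 and -0.06 for all genes. PER1 was lower in both, at -2.08 (edgeR adjusted p = 0.00523) and -2.25 (edgeR adjusted p = 0.0187). In D-3 and IT against FIT 0 of 12 and 0 of 11 passed. In D-3 against D-2, where PTGER2 was lower, 5 of 12 were higher, against 14.6% of all genes, with a median of 0.97 against 0.11. In DP-3 day 1 against D-2 4 of 11 were higher, against 13.1% of all genes. They were led by FOS at 3.26 (edgeR adjusted p = 4.6e-05) and NR4A2 at 2.48 (edgeR adjusted p = 0.000308). In DP-3 against DP-3 day 1 4 of 11 were lower, against 5.76% of all genes, with FOS at -2.34 (edgeR adjusted p = 0.00205).

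Inducers of PTGS2 and PTGES, namely cytokines, EGR1, C/EBP and NF-κB genes, formed the last list. In D-3 against D-2 4 of 8 tested were higher and 1 was lower, with a median of 0.75 against 0.11 for all genes. NFKB2 was higher by 1.57 (edgeR adjusted p = 0.00182), CEBPB by 1.34 (edgeR adjusted p = 0.00080), and IL1R1, the interleukin-1 receptor, was lower at -1.24 (edgeR adjusted p = 0.00909). In DP-3 day 1 against D-2 2 of 8 were higher, NFKB2 by 1.19 (edgeR adjusted p = 2.2e-05) and CEBPB by 1.12 (edgeR adjusted p = 4.5e-05), and 1 was lower. In DP-3 against D-3 1 of 8 was higher, EGR1 by 2.70 (edgeR adjusted p = 0.0290), and 3 were lower, NFKB2 at -1.38 (edgeR adjusted p = 0.00666) among them. The part of these inducers in the levels of PTGES was not tested.

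Likeness of pattern was also ranked for PTGES and PTGS2 over the 18 libraries. P4HA2, a collagen prolyl hydroxylase, had the highest r to PTGES (0.953), followed by AP000769 (0.934) and PTPRR (0.931). P4HA2 means were 11.8 FPKM in D-3, 10.6 FPKM in DP-3 day 1, 9.39 FPKM in IT and 5.51 to 6.55 FPKM in the other groups. For PTGS2 the values were lower, with BLZF1 at 0.786 and FABP4 at 0.776. FABP4, a fatty acid carrier of adipocytes, was listed at 0 in FIT and had means of 2.63 FPKM in D-3 and 3.58 FPKM in DP-3.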

How the data were processed

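RNA of 18 libraries, 3 in each of 6 groups, had been sequenced from poly(A) RNA by the authors, who per the labels used cutadapt 1.9, HISAT2 2.0.4 and StringTie 1.3.4d. The deposited FPKM values are the authors' StringTie values. Estimated counts were deposited beside them by the authors. How they were made, the genome build and the annotation are not given in the sources used here. Of 50119 genes, 48223 were found in GENCODE release 29 and 99.9% of those overlapped, so positions are on GRCh38. Groups and replicate numbers came from the labels. No pair of libraries had identical counts.

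The members and gene lists were chosen with earlier results of these data known. All 10 genes are named. From each list, up to 2 DEGs higher and 2 lower in a comparison, with a mean of at least 1 FPKM, could be named, and others are given by count. A separate fit of the 6 libraries was made per comparison with edgeR 4.0.16 in R 4.3.3 (TMM scaling, glmQLFit, glmQLFTest) over all genes passing the filter, after tests on simulated data. A fold against a group at or under 12 counts in every library was computed against 12 counts per library. The SE was derived from the log2 fold change and the F statistic. DESeq2 1.42.0, limma 3.58.1 on log2(FPKM + 0.1) and log2(FPKM + 1), FPKM minimum 1, no filter, median-of-ratios scaling, one fit of all 18 libraries, the replicate number as a block, and leaving out each library were alternatives. Patterns were compared by Pearson r of log2(FPKM + 0.1). Results that need items withheld for evaluation are not reported here. Promoters came from RefSeq.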

Additional observations from a re-analysis of the deposited data

Results flagged for a closer look

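The effects of 2 cultures against FIT differed, by the direct edgeR test between the cultures, for 2 genes. PTGES differed between D-3 and D-2 by a log2 fold change of 3.60 (edgeR adjusted p = 0.00423) and between DP-3 and D-3 by -3.79 (edgeR adjusted p = 0.00793). PTGER2 differed between D-3 and D-2 by -1.59 (edgeR adjusted p = 0.00169) and between DP-3 and D-3 by 1.70 (edgeR adjusted p = 0.0113). D-3 libraries enter all 4 of these values. Groups of 3 were too small for a check of single outlying libraries.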

How the results depend on the processing

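Alternatives were counted only for fold changes that were DEGs, or at least 2-fold with no group at the limit of detection. PTGDR2 against FIT was included, and smaller changes, whose direction turns more easily, were left out. With that choice a reversal was unlikely from the start. That directions did not reverse in any of these 396 alternative values is thus a description, not a check. Of these 359 stayed on the same side of the threshold, which includes values that were no DEG in either fit, 25 lost and 12 gained a call. Counts of DEGs given here leave out PTGDR2, as above. The number in D-3 against FIT was 5 by DESeq2 and 5 in one fit of all 18 libraries (2498 and 2036 DEGs over all genes, against 1399). In DP-3 against FIT it was 3 by DESeq2 and 0 with the replicate block (1896 and 164, against 965). In IT against FIT it was 1 by DESeq2 and 2 in one fit (661 and 553, against 0). In IT against D-3 it was 1 by DESeq2 and 1 in one fit (524 and 200, against 10). In DP-3 against DP-3 day 1 it was 1 by limma on log2(FPKM + 0.1), 1 by limma on log2(FPKM + 1) and 1 in one fit. In DP-3 day 1 against D-2 it was 1 by limma on log2(FPKM + 1). By limma on log2(FPKM + 0.1) it stayed at 3, but with PTGER4 called in place of PTGER2. The cause was not tested.

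With each library left out in turn, and PTGDR2 not counted, the number was 1 to 3 for D-2 against FIT and 0 to 3 for D-3 against FIT. For DP-3 against FIT it was 0 to 2 and for IT against FIT 0. It was 1 to 2 in DP-3 against DP-3 day 1, 2 in D-3 against D-2, 1 to 2 in DP-3 against D-3, 3 to 4 in DP-3 day 1 against D-2 and 0 in IT against D-3. Deviations of same-numbered libraries correlated at -0.186 to 0.235, and no comparison had every pair over 0.1. In D-3 against D-2 each library correlated best with its own number. In IT against FIT, which may share tumors, the values were 0.0625, 0.0574 and 0.0177. They cannot tell whether same-numbered libraries came from 1 tumor. The replicate block ended the calls of PTGS1 in D-2 against FIT (adjusted p = 0.0613) and of PTGES3 in DP-3 against FIT (adjusted p = 0.0502) by edgeR. Depth limits PTGS2, PTGIS, HPGD and, in FIT, PTGES.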
